A study of Mus musculus with 6 samples.

Results

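Sox2, Notch1, Jag1, Hes1, Hes5, Hey2, Lfng, Prox1, Lgr5 and Fgfr3 are regulators of the Notch pathway and of cochlear supporting cells, and their messenger RNA levels were compared between young and old mouse cochlea. The 10 genes were chosen by name for this role, and all 10 were found among the 25823 genes in the table. Cochlear tissue came from C57BL/6 mice, a strain that loses hearing early with age, at an age of 1 month in the young group and of 12 months in the old group. Each group had 3 samples, no mouse carried an engineered allele or received a treatment, and the sex was not given in the labels. Tissue of 3 mice was mixed for each sample, so that the spread between samples is a spread between pools. The labels name the tissue as the cochlea, with the basilar membrane dissected out for RNA. Markers of hair cells and supporting cells were present, and so were those of nerve, bone and cartilage, vessels and macrophages.

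Notch signalling passes between neighbouring cells. A ligand such as Jag1 on 1 cell binds a Notch receptor on the next, the receptor is cut by the gamma-secretase complex, and its inner part joins the DNA-binding protein RBPJ to switch on repressors of the Hes and Hey families. In the organ of Corti this exchange keeps supporting cells from becoming hair cells, Sox2 marks the cells that can form either type, and Prox1, Lgr5 and Fgfr3 mark pillar and Deiters' cells among the supporting cells.

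RBPJ is known to bind the letters TGGGAA. The start regions of Hes5, Hey2 and Lfng are shown because they were the ones among the members to hold these letters more than once. RefSeq (GRCm38.p6) gave windows of 300 bases, from 250 before to 50 after a transcript start, for 8 of the 10 genes, in 10 windows. Hes1 and Lgr5 were not listed. TGGGAA was searched on both strands. The capitals mark TGGGAA or its reverse complement TTCCCA, all 3 stretches read 5′ to 3′ on the gene's strand, and the 250 bases before the start are printed, with 5 bases after it in Hey2, whose last match runs across the start. They lie at chr4:154960673-154960922 (plus strand) for Hes5, chr10:30842779-30843033 (minus strand) for Hey2 and chr5:140607091-140607340 (plus strand) for Lfng.
Hes5: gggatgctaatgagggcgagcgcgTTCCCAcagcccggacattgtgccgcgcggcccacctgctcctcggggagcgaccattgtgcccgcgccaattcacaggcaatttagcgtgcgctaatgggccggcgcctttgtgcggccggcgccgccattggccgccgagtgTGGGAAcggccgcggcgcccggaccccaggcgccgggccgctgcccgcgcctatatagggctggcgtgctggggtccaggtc
Hey2: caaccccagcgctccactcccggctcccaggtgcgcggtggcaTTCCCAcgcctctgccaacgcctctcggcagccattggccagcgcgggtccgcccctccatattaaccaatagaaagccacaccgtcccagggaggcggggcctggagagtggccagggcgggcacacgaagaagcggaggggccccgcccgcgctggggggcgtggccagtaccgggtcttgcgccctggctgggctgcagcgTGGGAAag
Lfng: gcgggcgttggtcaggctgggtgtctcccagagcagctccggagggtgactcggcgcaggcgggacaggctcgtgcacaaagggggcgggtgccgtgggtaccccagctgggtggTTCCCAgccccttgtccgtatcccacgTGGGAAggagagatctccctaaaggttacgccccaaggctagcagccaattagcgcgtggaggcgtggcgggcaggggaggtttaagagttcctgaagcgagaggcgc
TGGGAA was found in 4 of the 10 windows, those of these 3 genes and 1 of Prox1, and in 25.6% of the 32851 windows of all genes. At least 2 matches were found in 3 of the 10 windows (Hes5, Hey2 and Lfng) and in 3.79% of all windows. The matches started 226 and 82 bases before the transcript start in Hes5, 207 and 3 bases before it in Hey2, and 135 and 108 bases before it in Lfng. With the longer letters GTGGGAA, which include TGGGAA, 3 of the 10 windows held a match, against 6.38% of all windows. A match is a description of the letters in the window only.

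All levels are given as FPKM per gene, which is the number of fragments scaled to the length of the transcript and to the size of the library, summed over the transcripts of the gene. Changes are log2 differences of FPKM + 0.1, old minus young, so that a change of a low gene is understated. They were tested with limma over the 19649 genes whose mean reached 0.1 FPKM, and p was adjusted by the Benjamini-Hochberg method over all of them with a threshold of 0.05. The steps between low FPKM values correspond to between 12470000 and 15670000 fragments per sample. Replicates of 1 group correlated with r between 0.95 and 0.962 across genes, and by this measure no sample stood apart. The summed FPKM of neuron markers was 597 in young replicate 3, against 941 and 1189 in young replicates 1 and 2. That of Schwann cell and satellite glia markers was 942, against 1416 and 1319.

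Of the 10 members, 1 rose in the old cochlea, Lgr5, and 0 fell past the threshold. This is a share of 10%, and 9.09% of all genes tested passed in either direction (5.41% higher and 3.68% lower). At an unadjusted limma p below 0.05, 1 member was higher and 3 were lower, where 27.5% of all genes passed (14.5% higher and 13.0% lower). The old samples all lay above or all below the young samples for 4 of the 10 members, higher for Lgr5 and lower for Jag1, Hey2 and Prox1, and for 33.5% of all genes (17.5% higher and 16.0% lower). The median log2 change of the 10 members was -0.22, and that of all genes was 0.01. When each sample was left out in turn, the count of members past the threshold was 2 without young replicate 3 (Lgr5 and Prox1) and 0 without any 1 of the others. Over all genes tested, 1787 passed with all 6 samples, 1756 without young replicate 3 and 59 to 708 without any 1 of the others. In bulk tissue, fewer cells of a type and less RNA per cell cannot be told apart.

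**Figure D1:**
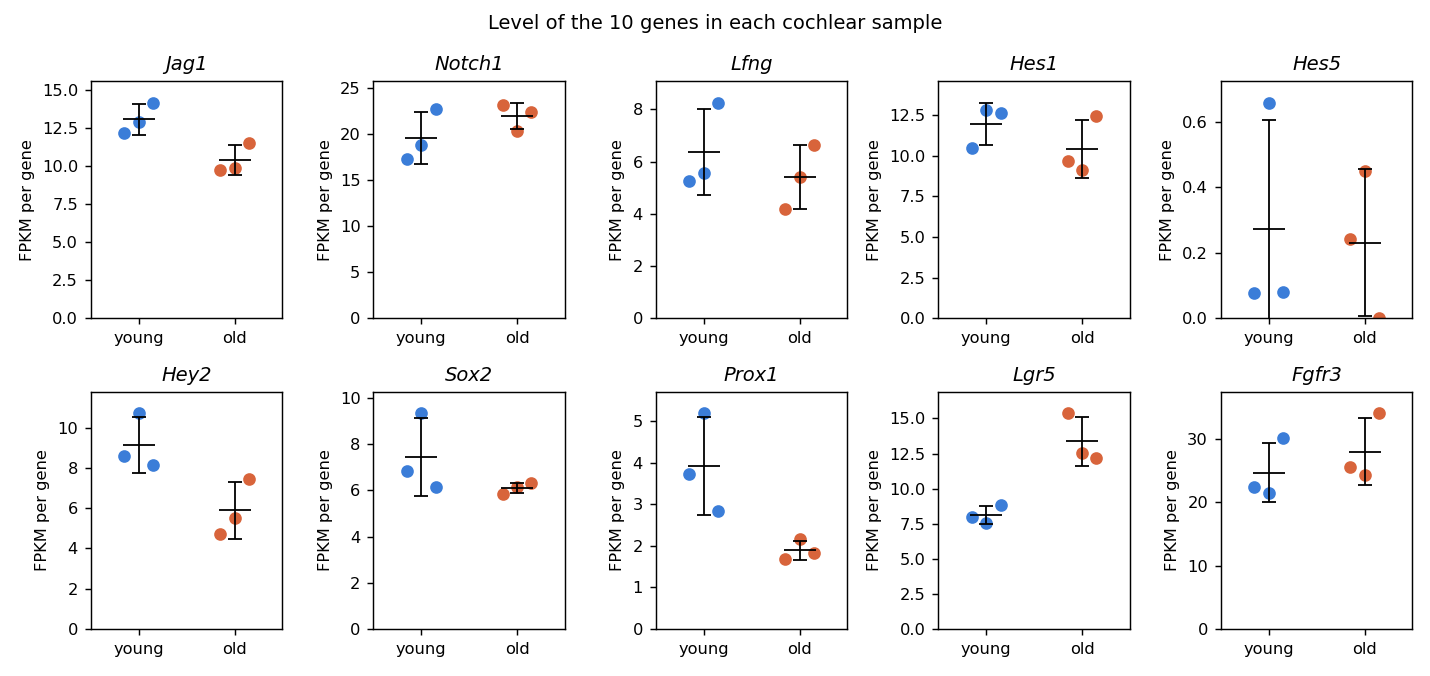
FPKM per gene (vertical axes, each starting at 0) of the 10 members in the 3 young (blue) and 3 old (orange) samples, with the group mean and SD in black (the SD bar of Hes5 is cut at 0). Lgr5 is higher in all old samples, from 12.2 to 15.4 against 7.53 to 8.80 FPKM, Jag1, Hey2 and Prox1 are lower in all old samples, and the groups of the other 6 genes overlap.

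Lgr5, a receptor for R-spondins that strengthens Wnt signalling and marks a subset of Deiters' and inner supporting cells, was at 7.96, 7.53 and 8.80 FPKM in young replicates 1, 2 and 3. In old replicates 1, 2 and 3 it was at 15.4, 12.6 and 12.2 FPKM. The old samples lay above the young ones without overlap. The mean rose from 8.10 ± 0.650 FPKM (SD, n = 3) to 13.4 ± 1.74 FPKM (SD, n = 3) (log2 change 0.71, SE 0.12, limma adjusted p = 0.0230). By an exact permutation test the two-sided p was 0.1, and 3 samples against 3 allow no smaller one. An estimated 461 to 486 fragments per young sample and 728 to 873 per old sample support these values. Of the 3 Lgr5 transcripts in the table, ENSMUST00000020350, with 18 exons and 4714 nt, held practically all of the value. The gene occupies bases 115450311 to 115587780 of chromosome 10 (GRCm38, minus strand). The change had the same direction in every setting run, and it did not pass the threshold without the trend of the variance (adjusted p = 0.0626) or without any 1 of the samples other than young replicate 3 (adjusted p from 0.0543 to 0.0746).

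Prox1, a homeobox transcription factor of pillar and Deiters' cells that is also known from lymphatic endothelium and some spiral ganglion neurons, was at 3.73, 5.19 and 2.84 FPKM in the young samples. In the old samples it was at 1.69, 2.16 and 1.82 FPKM. Every old value was below every young value, and the young samples were spread more widely than the old ones. The means were 3.92 ± 1.19 FPKM (SD, n = 3) and 1.89 ± 0.238 FPKM (SD, n = 3) (log2 change -0.98, SE 0.24, limma adjusted p = 0.0507), just outside the threshold. Of 16 other settings with an adjusted p, Prox1 passed in 3. These were without young replicate 3 (log2 change -1.18, limma adjusted p = 0.0320), with sample weights (adjusted p = 0.0418) and with a minimum of 1 FPKM (adjusted p = 0.0410). In the rest it did not pass, with a limma adjusted p of up to 0.132. The main Prox1 transcript, ENSMUST00000175916 with 7913 nt, held 72.5% of the gene's FPKM, and it alone was at 3.09, 3.08 and 2.30 FPKM in young and at 1.69, 1.48 and 1.01 FPKM in old samples. Prox1 occupies bases 190118035 to 190170714 of chromosome 1 (minus strand). Neuron markers moved in the same direction: 6 of 12 fell and 0 rose past the threshold, where 3.68% of all genes fell and 5.41% rose. Their summed FPKM was 597 to 1189 in young and 403 to 435 in old samples. Of the 5 lymphatic markers tested, 1 rose (Pdpn) and 0 fell, and 4 had a change above 0. Lyve1 was at 0.722, 0.221 and 0.369 FPKM in young and at 0.854, 0.951 and 1.11 FPKM in old samples, low values that did not pass (limma adjusted p = 0.135). Flt4 (log2 change 0.18), Ccl21a (0.63) and Reln (-0.15) overlapped between the groups and did not pass either. The part of neurons and of lymphatic vessels in the Prox1 difference was not tested.

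Sox2, the transcription factor of the sensory precursor and of adult supporting cells, was at 6.85, 9.34 and 6.16 FPKM in young and at 5.85, 6.14 and 6.32 FPKM in old samples. Its groups overlapped, and the log2 change was -0.26 (SE 0.17, limma adjusted p = 0.358), with a range from -0.39 to -0.09 when each sample was left out. The Sox2 gene has 1 exon and occupies bases 34650405 to 34652461 of chromosome 3 (plus strand). Within a sample, Prox1 was at 0.545, 0.556 and 0.462 of the Sox2 level in young and at 0.290, 0.351 and 0.288 of it in old samples. The mean log2 ratio of both genes, with 0.1 added to each FPKM, differed by -0.72 between old and young (two-sided p = 0.1 by an exact permutation test, the smallest possible). As Prox1 alone was already lower in all old samples, this ratio is not independent of the Prox1 difference.

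Jag1 was the main ligand measured. It was at 12.2, 12.9 and 14.2 FPKM in young and at 9.76, 9.91 and 11.5 FPKM in old samples, and every old value was below every young value. The means were 13.1 ± 1.03 FPKM (SD, n = 3) and 10.4 ± 0.984 FPKM (SD, n = 3) (log2 change -0.33, SE 0.11, limma adjusted p = 0.104), which did not pass. The single Jag1 transcript in the table has 26 exons and 5612 nt and occupies bases 137081456 to 137116644 of chromosome 2 (minus strand).

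Notch1, the receptor, went the other way in its mean but overlapped between the groups. It was at 17.3, 18.8 and 22.7 FPKM in young and at 23.2, 20.3 and 22.4 FPKM in old samples (log2 change 0.17, SE 0.12, limma adjusted p = 0.396). ENSMUST00000028288, with 34 exons and 9488 nt, held practically all of it, and the gene occupies bases 26457903 to 26516663 of chromosome 2 (minus strand).

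The level of the ligand relative to the receptor was also compared within each sample. Jag1 was at 0.704, 0.684 and 0.624 of the Notch1 level in young replicates 1, 2 and 3 and at 0.421, 0.487 and 0.515 of it in old replicates 1, 2 and 3. All old ratios were below all young ratios. As Jag1 alone was already lower in all old samples, this is not independent of the Jag1 difference. With 0.1 added to each FPKM, the mean log2 ratio was -0.57 ± 0.0912 (SD, n = 3) in young and -1.07 ± 0.148 (SD, n = 3) in old samples, a difference of -0.50 (two-sided p = 0.1 by an exact permutation test, the smallest possible). A ratio within a sample does not depend on how the sample was scaled, and it does not tell which of both genes differed. The difference stayed between -0.56 and -0.42 when each sample was left out.

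**Figure D2:**
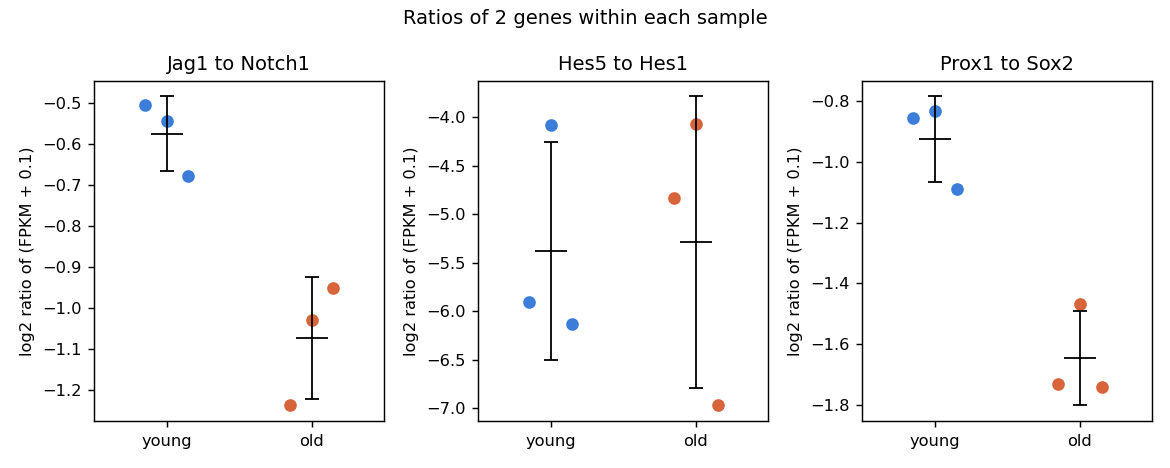
Log2 ratio of FPKM + 0.1 (vertical axes) of Jag1 to Notch1, Hes5 to Hes1 and Prox1 to Sox2 in the 3 young (blue) and 3 old (orange) samples, with the mean and SD in black. The groups are apart for Jag1 to Notch1 (means -0.57 and -1.07) and for Prox1 to Sox2 (-0.93 and -1.65), and they overlap for Hes5 to Hes1.

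Lfng, an enzyme that adds a sugar to Notch receptors and so shifts which ligand they answer, was at 5.26, 5.58 and 8.26 FPKM in young and at 4.18, 5.41 and 6.65 FPKM in old samples. The groups overlapped (log2 change -0.23, SE 0.23, limma adjusted p = 0.565), and the change ranged from -0.38 to -0.03 when each sample was left out. Its gene occupies bases 140607320 to 140615545 of chromosome 5 (plus strand).

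The targets of the pathway differed in level. Hes1 was at 10.5, 12.8 and 12.6 FPKM in young and at 9.68, 9.13 and 12.4 FPKM in old samples, with overlap (log2 change -0.21, SE 0.15, limma adjusted p = 0.411). Hes5, a target used in the developing organ of Corti as a readout of active Notch, was near the limit of detection. It was at 0.0765, 0.660 and 0.0815 FPKM in young replicates 1, 2 and 3, from an estimated 1, 9 and 1 fragments, and in old replicates 1, 2 and 3 it was at 0.244, 0.450 and 0 FPKM, from an estimated 3, 7 and 0 fragments. At this depth no difference in Hes5 was detectable (log2 change -0.12, SE 0.86, limma adjusted p = 0.945), and its direction turned when young replicate 2 or old replicate 3 was left out (0.57 and 0.58). The ratio of Hes5 to Hes1 was 0.0516 or less in all 6 samples and overlapped between the groups.

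Hey2, a target that in the cochlea is also kept on by FGF signals in pillar cells, was at 8.58, 10.7 and 8.14 FPKM in young and at 4.71, 5.50 and 7.46 FPKM in old samples. Every old value was below every young value, old replicate 3 being the closest to them. The means were 9.15 ± 1.38 FPKM (SD, n = 3) and 5.89 ± 1.42 FPKM (SD, n = 3) (log2 change -0.64, SE 0.19, limma adjusted p = 0.0812), and the adjusted p did not pass in any setting run (from 0.0582 to 0.223). The Hey2 gene occupies bases 30832359 to 30842801 of chromosome 10 (minus strand). Hey2 is also known from vessels. Of the 14 endothelial markers, 11 had a change below 0 and 0 passed the threshold. At an unadjusted limma p below 0.05, 5 were lower and 0 higher, where 13.0% of all genes were lower and 14.5% higher. The most abundant of them, Emcn, had a log2 change of 0.16. The summed FPKM of the 14 markers was 204 to 282 in young and 159 to 235 in old samples. Old replicate 3 was the highest of the old samples both in that sum and in Hey2. It was also the highest of them in Jag1, Hes1, Lfng, Sox2 and Fgfr3, but not in Notch1, Hes5, Prox1 or Lgr5. The part of vessels in the Hey2 difference was not tested.

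Fgfr3, the FGF receptor of pillar and Deiters' cells, had the highest mean of the 10 members in both groups. It was at 22.4, 21.5 and 30.1 FPKM in young and at 25.5, 24.3 and 34.0 FPKM in old samples, with overlap (log2 change 0.18, SE 0.17, limma adjusted p = 0.533). The change ranged from 0.03 to 0.33 when each sample was left out, and it was 0.70 for the most abundant transcript alone. The table splits Fgfr3 over 13 transcripts, and the most abundant, ENSMUST00000067150 with 4218 nt, held 28.0%. Of all member transcripts, 1 passed the threshold when transcripts were tested (limma, p adjusted over 38764 transcripts, of which 0.748% passed, 0.549% higher and 0.199% lower). This was the Fgfr3 transcript ENSMUST00000202182, with 648 nt, at 1.00, 0.973 and 1.09 FPKM in young samples and listed at practically 0 in the old ones (limma adjusted p = 0.0473). An estimated 4.77 to 4.85 fragments per young sample were behind it, and the way reads are divided among 13 overlapping transcripts makes its value uncertain. The call was lost without any 1 of the samples. At an unadjusted limma p, 6 member transcripts were below 0.05, 2 of them higher and 4 lower. Of all transcripts, 9.05% were higher and 7.98% lower at that p.

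**Figure D3:**
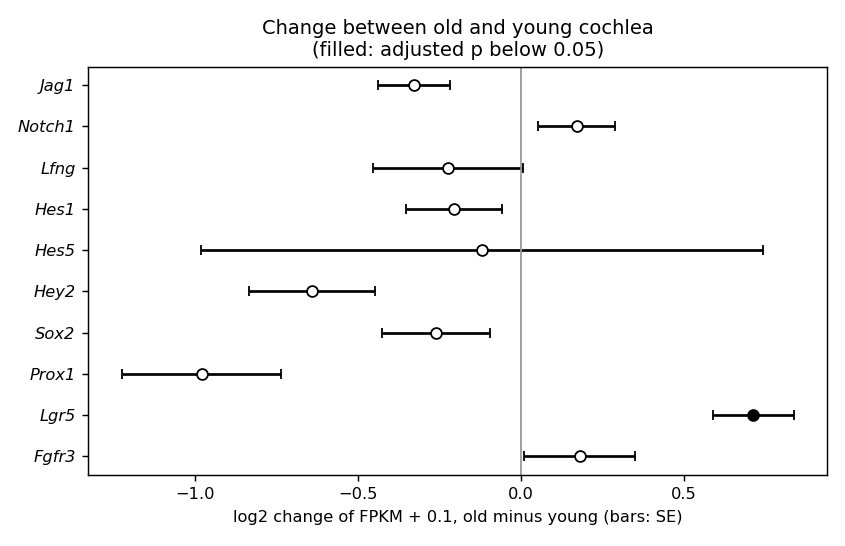
Log2 change of FPKM + 0.1, old minus young (horizontal axis, bars show the SE of the limma fit), of the 10 members. Lgr5 at 0.71 is filled, being past the threshold, and Prox1 lies furthest to the left at -0.98.

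The order of the members by level changed little apart from Lgr5. In young samples the means fell from Fgfr3 (24.7 FPKM) over Notch1 (19.6), Jag1 (13.1), Hes1 (12.0), Hey2 (9.15), Lgr5 (8.10), Sox2 (7.45), Lfng (6.37) and Prox1 (3.92) to Hes5 (0.273). In old samples the order was Fgfr3 (27.9 FPKM), Notch1 (22.0), Lgr5 (13.4), Hes1 (10.4), Jag1 (10.4), Sox2 (6.10), Hey2 (5.89), Lfng (5.41), Prox1 (1.89) and Hes5 (0.231). In the young group the ranges of neighbours overlapped from Jag1 down to Lfng and between Fgfr3 and Notch1, so that only the steps from Notch1 to Jag1, Lfng to Prox1 and Prox1 to Hes5 exceeded the spread. In the old group Lgr5, Hes1 and Jag1 overlapped as neighbours, as did Sox2, Hey2 and Lfng, and the other steps exceeded the spread.

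The rest of the Notch pathway was described by a list of 61 genes, of which 58 were tested. Of these, 2 rose and 1 fell past the threshold, a share of 5.17% beside 9.09% of all genes, with a median log2 change of -0.02. Ccnd1, a cyclin of the G1 phase that Notch can switch on, rose from 4.75, 3.28 and 4.89 FPKM in young to 12.0, 11.3 and 11.1 FPKM in old samples (log2 change 1.41, SE 0.17, limma adjusted p = 0.0116). Aph1a, a subunit of gamma-secretase, rose from 38.8, 39.0 and 39.4 FPKM to 48.2, 52.0 and 51.9 FPKM (log2 change 0.37, SE 0.06, limma adjusted p = 0.0218). Notch4, the receptor known from endothelium, fell from 6.29, 5.95 and 5.67 FPKM to 3.38, 3.48 and 4.04 FPKM (log2 change -0.70, SE 0.13, limma adjusted p = 0.0265). The groups of these 3 genes did not overlap. Beside Notch4, endothelial markers had a median log2 change of -0.39, and their part in the fall of Notch4 was not tested.

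By role, the 10 genes of receptor cleavage held 1 of these calls, the 3 other receptors 1 and the 10 targets tested 1. Of the 4 other ligands tested, the 4 enzymes of glycosylation, the 6 genes of the RBPJ complex, the 10 corepressors and the 11 genes of trafficking, 0 passed in either direction with limma. At an unadjusted limma p below 0.05 there were 0, 1, 0, 3 and 3 of them, where 27.5% of all genes passed. When each sample was left out in turn, the count over the whole list was 0 without old replicate 2, 1 without young replicate 2 and 2 or 3 otherwise. Some genes were singled out after their values were seen. Rbpj itself was at 12.5, 13.8 and 13.5 FPKM in young and at 13.5, 13.4 and 13.4 FPKM in old samples. Notch2 was the most abundant receptor of the family, at 26.2 to 33.0 FPKM in young and 28.4 to 33.7 FPKM in old samples. Tle2, a corepressor of the Groucho family, was at 6.13, 8.14 and 6.05 FPKM in young and at 18.3, 17.7 and 8.26 FPKM in old samples, and old replicate 3 lay next to the young samples (log2 change 1.04, SE 0.30, limma adjusted p = 0.0761). The 2 genes of the list with the highest mean were Id3, at 123 to 130 FPKM in young and 131 to 155 FPKM in old samples, and Psenen, a gamma-secretase subunit, at 85.7 to 113 and 108 to 117 FPKM.

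**Figure D4:**
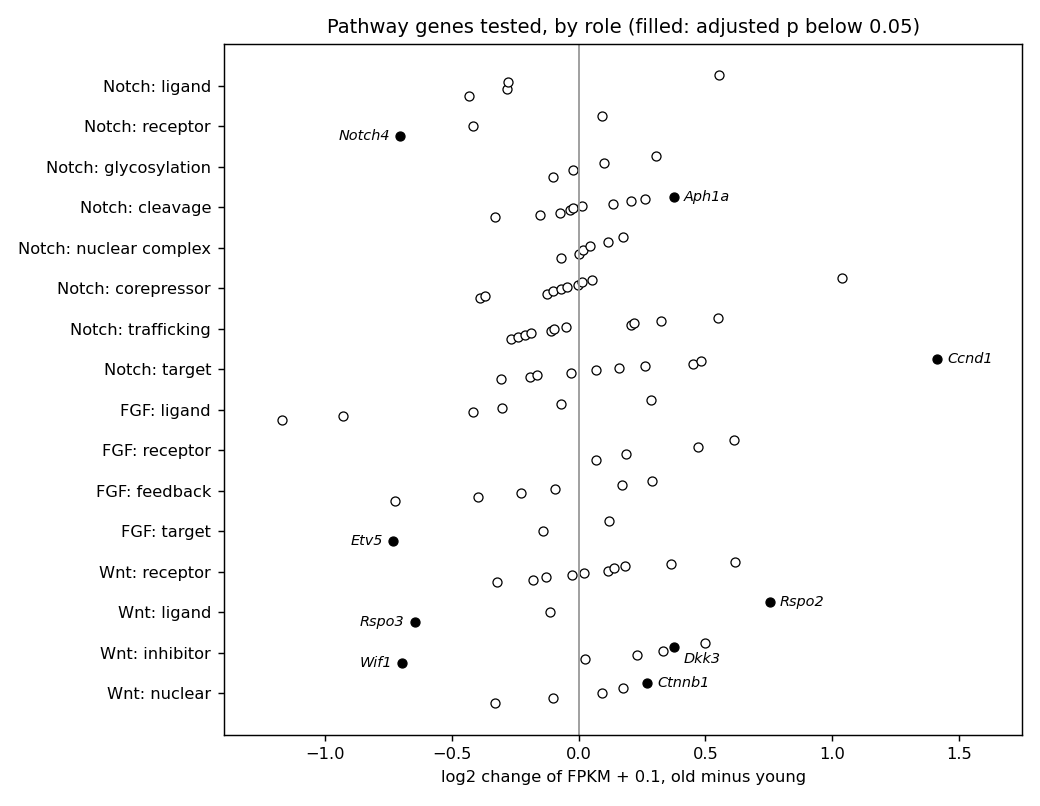
Log2 change of FPKM + 0.1, old minus young (horizontal axis), of the tested genes of the Notch, FGF and Wnt lists by role (vertical axis), with genes past the threshold filled and named. Of 58 Notch, 19 FGF and 24 Wnt genes, 3, 1 and 5 are filled.

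Fgfr3 was set beside 21 other genes of the FGF pathway, whose ligands, receptors and feedback inhibitors shape pillar cells in the developing cochlea. Of the 19 genes tested, 0 rose and 1 fell past the threshold, a share of 5.26% beside 9.09% of all genes, with a median log2 change of -0.09. Etv5, a transcription factor switched on by FGF signals, fell from 10.8, 10.5 and 11.7 FPKM in young to 6.22, 7.50 and 6.06 FPKM in old samples (log2 change -0.73, SE 0.12, limma adjusted p = 0.0207). At an unadjusted limma p below 0.05, 3 genes were higher and 6 were lower, where 14.5% of all genes were higher and 13.0% lower. Of the 4 receptors, 0 passed the adjusted threshold in limma. The 3 higher ones were all receptors, Fgfr2 and, singled out after their values were seen, Fgfr4 and Fgfrl1, and all 4 receptors of the list had a change above 0, from 0.07 to 0.61. Of the 6 ligands tested, 5 had a change below 0 and 0 passed the adjusted threshold in limma. Fgf9, Fgf10 and Fgf18, singled out in the same way, were lower at an unadjusted limma p below 0.05. The 2 genes with the highest mean were Fgfr1, at 84.0 to 95.1 FPKM in young and 85.4 to 103 FPKM in old samples, and Fgfr2, at 76.3 to 83.4 and 85.9 to 94.2 FPKM. Fgf8 and Fgf20, ligands of the developing organ of Corti that were also singled out, were at 0 in the young samples and at most at 0.477 FPKM in any old sample. Without young replicate 3, 3 genes of the list passed, and without any 1 of the other samples the count was 0.

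Lgr5 was set beside 25 other genes of Wnt and R-spondin signalling. Of the 24 tested, 3 rose and 2 fell past the threshold, a share of 20.8% beside 9.09% of all genes, with a median log2 change of 0.10. Of the R-spondins, which are the ligands of Lgr5, Rspo2 and Rspo3 passed in opposite directions, Rspo1 did not pass (log2 change -0.11, SE 0.26, limma adjusted p = 0.807), and Rspo4 was at 0 in 5 of 6 samples and not tested. Rspo1 and Rspo4 were singled out after their values were seen. Rspo2 rose from 3.62, 4.09 and 4.75 FPKM in young to 8.58, 6.32 and 6.36 FPKM in old samples (log2 change 0.75, SE 0.17, limma adjusted p = 0.0415). Rspo3 fell from 39.8, 33.4 and 46.9 FPKM to 26.5, 25.4 and 24.1 FPKM (log2 change -0.65, SE 0.12, limma adjusted p = 0.0268). Rspo3 was the most abundant R-spondin in every sample.

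Among the genes listed as inhibitors of Wnt signalling, Wif1 fell from 3.90, 3.67 and 3.43 FPKM in young to 2.22, 2.12 and 2.33 FPKM in old samples (log2 change -0.70, SE 0.15, limma adjusted p = 0.0367). Dkk3, a secreted protein of the Dickkopf family, rose from 83.6, 72.9 and 82.1 FPKM to 111, 102 and 96.6 FPKM (log2 change 0.37, SE 0.08, limma adjusted p = 0.0363). Whether Dkk3 inhibits Wnt signalling in this tissue was not tested. Ctnnb1, which encodes beta-catenin, rose from 428, 388 and 431 FPKM to 516, 488 and 497 FPKM (log2 change 0.27, SE 0.07, limma adjusted p = 0.0477). Axin2, a common target of the pathway singled out after its values were seen, was at 14.5, 19.5 and 22.8 FPKM in young and at 18.3, 21.3 and 20.02 FPKM in old samples, with overlap. Of the receptors, 0 of 10 passed with limma and 2 had an unadjusted p below 0.05, beside 27.5% of all genes. The number of Wnt genes past the threshold was 3 without young replicate 3, 1 without young replicate 2 and 0 without any 1 of the other samples, and it was also 0 when all genes above 0 entered the test.

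The members were also read beside other supporting cell markers. Of 18 markers, 2 rose and 2 fell past the threshold, a share of 22.2% beside 9.09% of all genes, with a median log2 change of -0.01. Otog and Cd44 (log2 change 0.77, limma adjusted p = 0.0264) rose. Isl1 and Cdkn1b (log2 change -0.43, limma adjusted p = 0.0321) fell. The summed FPKM was 5086 to 5664 in young and 5512 to 6074 in old samples. Glul and S100a1, the 2 most abundant, were at 1266 to 1423 and 2134 to 2641 FPKM in young and at 1196 to 1462 and 2497 to 2910.2 FPKM in old samples, with overlap. Otog, an otogelin of the tectorial membrane, rose from 11.1, 10.03 and 11.7 FPKM to 22.0, 17.2 and 15.1 FPKM (log2 change 0.71, SE 0.15, limma adjusted p = 0.0326). Isl1, a homeobox gene of the supporting cell list that spiral ganglion neurons also express, fell from 28.2, 35.6 and 24.1 FPKM to 12.8, 15.4 and 17.5 FPKM (log2 change -0.93, SE 0.17, limma adjusted p = 0.0244).

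Markers of other cells moved between the groups. Beside the counts that follow, 5.41% of all genes tested rose and 3.68% fell past the threshold. Of 17 hair cell markers tested, 0 rose and 7 fell, among them Calb2 and Ocm, with a summed FPKM of 848 to 1090 in young and 484 to 548 in old samples. This sum was mostly Calb2, at 766, 838 and 504 FPKM in young and at 303, 349 and 306 FPKM in old samples. Among the young samples, Calb2 and the sum of the neuron markers were lowest in replicate 3, where Ocm was highest. Ocm was at 140, 91.9 and 173 FPKM in young and at 47.8, 70.5 and 56.9 FPKM in old samples. The part of neurons in the hair cell sum was not tested. Of 12 macrophage markers, 11 rose and 0 fell, Lyz2 and C1qa being the most abundant, with a sum of 140 to 225 in young and 757 to 833 in old samples. Of 12 Schwann cell and satellite glia markers, 0 rose and 3 fell, with a sum of 942 to 1416 in young and 822 to 852 in old samples. Of 11 cartilage and bone markers tested, 2 rose and 3 fell, with a sum of 5460 to 6165 in young and 4801 to 5234 in old samples. That sum was mostly Spp1, at 5022 to 5550 FPKM in young and 4216 to 4613 FPKM in old samples, which did not pass (limma adjusted p = 0.0891). The sums of the erythrocyte markers (1434 to 2954 and 1369 to 2254) and of the central glia markers (54.8 to 75.1 and 53.6 to 57.6) overlapped between the groups, with 0 genes past the threshold in limma and 1 and 3 at an unadjusted p below 0.05. Of 5 lymphatic markers tested, 1 rose and 0 fell, and the sum was 33.5 to 35.6 in young and 42.5 to 46.2 in old samples, mostly Pdpn and Reln, which other cells express too. Atoh1, of hair cell precursors, was at or below 0.0821 FPKM in every sample. Of the oligodendrocyte markers, Opalin and Olig2 were at or below 0.146 FPKM in every sample, Olig1 reached 0.482 FPKM in young replicate 1 and 0.474 FPKM in old replicate 2, and Mog reached 1.54 and 0.403 FPKM in the same samples. The part of these cell types in the values of the members was not tested.

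**Figure D5:**
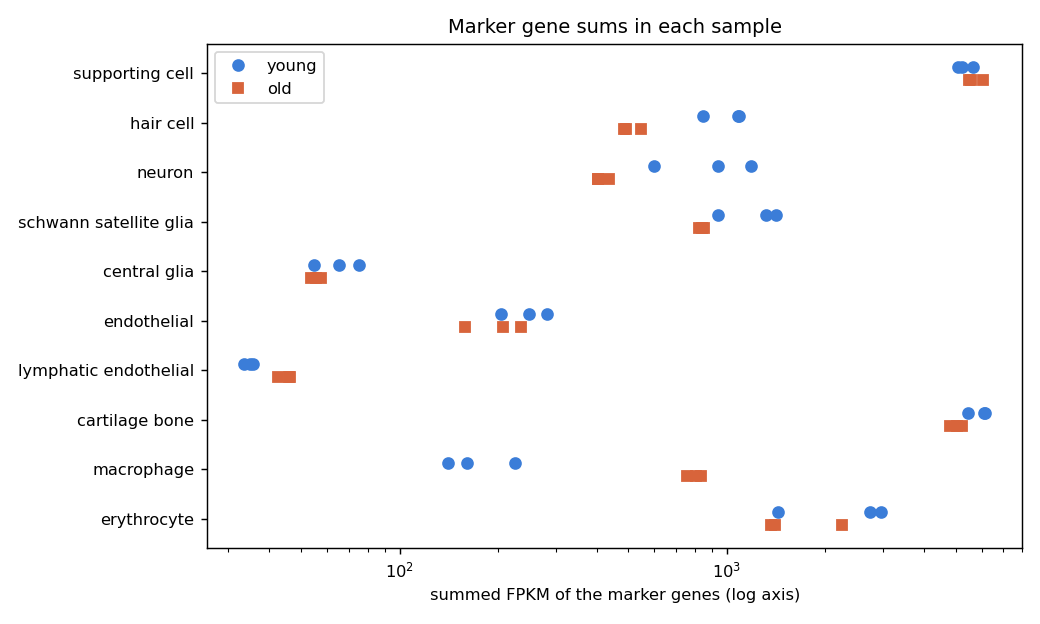
Summed FPKM of each list of marker genes (horizontal log axis) in the 3 young (blue circles) and 3 old (orange squares) samples. The supporting cell sums of both groups overlap between 5512 and 5664 FPKM, the hair cell and neuron sums are lower and the macrophage sums higher in all old samples. The hair cell sums are mostly Calb2.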

How the data were processed

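RNA of 3 young and 3 old cochlear samples was sequenced. According to the study's methods and the submitters' processing notes, the authors aligned the reads to GRCm38 (TopHat2 2.0.9), assembled transcripts with Cufflinks 2.1.1, and Cuffdiff 2.1.1 gave an FPKM value for every transcript in every sample. The deposited values are FPKM, and how libraries were scaled to each other and the annotation release are not given in the sources used here. Of the 56671 transcripts, 55275 were matched to GENCODE M21, 404 Ensembl transcripts were not matched, and 992 carry identifiers of the authors' own. FPKM were summed per gene. Samples were grouped by their titles. Nothing says that samples came from separate litters or days, so p-values measure the spread between these pools.

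Groups were compared with limma 3.58.1 under R 4.3.3, two-sided, after 0.1 was added to each FPKM and log2 taken (lmFit, then eBayes with its trend option), for genes whose mean reached 0.1 FPKM, with age group as the only term and p adjusted over all genes. Cuffdiff, the test of the study, needs reads, which were not used here. Single values and ratios were compared by exact permutation tests. Fragment numbers were estimated from the steps of low FPKM values of genes with a single transcript of 1000 to 4000 nt, of which 92.8 to 94.6% lay within 0.1 of a whole number, against 20% by chance. They carry counting error and the error of this estimate and, for genes with several transcripts, that of dividing reads among them. They were given for transcripts of at least 500 nt. The code was tested on simulated data. Python 3.11.15 was used for tables and plots.

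The members and the lists of pathway and marker genes were chosen with earlier results of these data known. Named genes are all members and, of each pathway list, the genes past the threshold (at most 5 in each direction) and the 2 with the highest mean, of each marker list the 2 with the highest mean and at most 2 past the threshold, all member transcripts whose mean reached 0.1 FPKM, and for each member the gene most like it. Other genes are marked as singled out or named as markers of a cell type. The alternatives were the pseudocount, the filter, the scaling, the variance trend, sample weights, a replicate block, the most abundant transcript in place of the sum, each sample left out, and an unadjusted p.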

Additional observations from a re-analysis of the deposited data

How the results depend on the processing

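Samples of 3 pools limit each call, and Hes5 was at the limit of the depth. The number of members past the threshold (1) was 2 with a minimum of 1 FPKM and with sample weights, 0 without the variance trend and 4 at an unadjusted p. For the other Notch genes (3) it was 5 with sample weights and 15 unadjusted. For the FGF genes (1) it was 2 with a minimum of 1 FPKM, 0 without the trend, 3 with sample weights and 9 unadjusted. For the Wnt genes (5) it was 0 with no filter, 3 with quantile normalization, 1 without the trend and 8 unadjusted. For the markers (37) it was 21 with no filter, 11 without the trend and 72 unadjusted. For the member transcripts (1) it was 0 with a pseudocount of 0.01 or 1 and with a minimum of 1 FPKM, and 6 unadjusted.

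Same-numbered samples did not deviate together (r = 0.022, -0.042 and 0.010), not every sample correlated best with its own number, and the labels name no shared origin. With the replicate block, 0 members (Lgr5 adjusted p = 0.0530 in limma), 1 other Notch gene, 0 FGF genes, 0 Wnt genes and 0 member transcripts passed.

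With each sample left out in turn, the counts were 0 to 2 for members, 0 to 3 for Notch, FGF and Wnt genes, 2 (without old replicate 2) to 44 for markers and 0 for transcripts. Over all genes tested the count was 59 (without old replicate 2) to 1756 (without young replicate 3). The log2 change of Hes5 ranged from -0.64 to 0.58, with 0.21 under sample weights. The Hes5 to Hes1 difference (0.08) ranged from -0.53 to 0.92, and it was -0.52 with a pseudocount of 0.01. The causes were not tested.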

Other observations

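Each member was set beside the gene, among 15065 genes with a mean of at least 1 FPKM, whose log2 level ran most alike over the 6 samples. These are descriptions over 6 samples of both age groups, which share their libraries, and with so many genes a high r is reached by many. The closest profiles were those of Tbc1d30 for Sox2 (Pearson r = 0.993), Tbx1 for Notch1 (0.992), Rbm41 for Jag1 (0.997), Zbtb5 for Hes1 (0.997), Zfp959 for Hes5 (0.976), Ciao1 for Hey2 (0.997), Ptbp1 for Lfng (0.983), Nmnat2 for Prox1 (0.9998), LNC_000014 for Lgr5 (0.997) and Tmprss2 for Fgfr3 (0.996). The number of genes with r above 0.95 was 495 for Prox1 and 355 for Lgr5, against 48 for Sox2, 28 for Notch1 and 8 for Hes5. Nmnat2, an enzyme of NAD synthesis that axons need, was at 32.2, 37.0 and 28.2 FPKM in young and at 22.5, 25.0 and 23.3 FPKM in old samples. LNC_000014, a transcript that the authors named themselves, was at 0.266, 0.230 and 0.454 FPKM in young and at 2.82, 1.42 and 1.13 FPKM in old samples. Tbx1, a transcription factor of the inner ear, was at 18.8, 19.8 and 24.3 FPKM in young and at 24.3, 21.3 and 23.7 FPKM in old samples.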
